A study of Mus musculus with 27 samples.

Results

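The expression of 10 germ cell and meiosis genes, *Dazl*, *Ddx4*, *Sycp1*, *Sycp3*, *Stk31*, *Tex101*, *Dpep3*, *Hormad1*, *Stag3* and *Smc1b*, was followed in mouse fibroblasts whose DNA methylation or histone methylation machinery had been depleted. They were taken by name from 23008 gene symbols with a value in the series, and a row was found for all 10. RNA-seq had been done on *Setdb1* conditional knockout (cKO) iMEFs, a line of immortalized fibroblasts from mouse embryos. The drug 4-hydroxytamoxifen (4OHT) induces the loss of *Setdb1* in these cells, the gene of an H3K9 methyltransferase. All groups came from this cKO line, which the study's methods describe as recloned from single cells, so that the replicates are samples of 1 clone, and p-values measure only the spread between these samples. The siRNA experiment held 8 libraries, with 2 from each of 4 groups, which were cells transfected with control siRNA (siCtrl), cells transfected with siRNA against *Dnmt1* (siDnmt1), and both transfections in cells that had been given 4OHT at day 0 (4OHT + siCtrl and 4OHT + siDnmt1), all harvested at day 6. The total RNA experiment held 9 libraries, with 3 each from untreated cells, cells at day 5 after the start of a 4OHT treatment of 4 days, and long-term KO cells more than 2 weeks after 4OHT. The inhibitor experiment held 10 libraries, with 2 each from untreated cells, cells given 150 nM TSA, an inhibitor of histone deacetylases, for 24 h, cells given 1 µM PD0325901, a MEK inhibitor, for 24 h, cells at day 6 after 4OHT, and cells given both 4OHT and PD0325901. The comparison of siDnmt1 with siCtrl asks what loss of the maintenance methyltransferase does to these genes in cells with and without 4OHT. All cells given 4OHT carried the conditional allele, so that effects of the drug and of *Setdb1* loss cannot be told apart.

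In somatic cells, many genes of germ cells are kept silent by methylation of CpG dinucleotides at their promoters, which Dnmt1 copies onto the new strand when DNA is replicated. Complexes of E2F6, MGA and polycomb proteins, which bind E2F and E-box motifs, are known to mark such promoters for silencing. The products of these genes work in the germ line. Dazl binds RNA and Ddx4 is an RNA helicase of germ granules, Sycp1 and Sycp3 build the synaptonemal complex that joins homologous chromosomes, Hormad1 coats the chromosome axes before they synapse, and Stag3 and Smc1b are subunits of the cohesin of meiosis. Tex101 is a surface glycoprotein of germ cells that binds Dpep3, a membrane dipeptidase of the testis, and Stk31 is a testis protein with a Tudor and a kinase domain.

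All 10 are protein-coding genes, and their loci were taken from the deposited files in build mm9. *Dazl* lies at chr17:50418718-50432945, *Ddx4* at chr13:113388541-113442518, *Sycp1* at chr3:102622422-102740023, *Tex101* at chr7:25453031-25457069, *Dpep3* at chr8:108497420-108503319 and *Smc1b* at chr15:84895119-84962387, all on the minus strand. *Sycp3* at chr10:87922332-87935981, *Stk31* at chr6:49345603-49419501, *Hormad1* at chr3:95363599-95391782 and *Stag3* at chr5:138721737-138753621 lie on the plus strand. The GENCODE annotation of mm9 places *Chpt1* on the opposite strand over the whole of *Sycp3*, so that 13650 bases are shared, and shorter opposite-strand genes over 462 bases of *Smc1b* and 824 bases of *Stk31*. Whether the libraries keep the strand is not given in the sources used here, and without strand the reads of such partners cannot be told apart.

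The promoters of all 10 genes were found in the RefSeq promoter table (build GRCm38.p6), which gives 250 bases before and 50 after each start. Each of these sequences matched mm9 at 1 place on the chromosome and strand of its gene, and the rest of the genome was not searched. They held between 12 (*Dpep3*) and 38 (*Ddx4*) CpG dinucleotides in 300 bases. The median over 32851 RefSeq promoters was 7, and 39.6% of them held at least 12. *Dazl* held 28 CpG, *Hormad1* 24, *Stag3* 30, *Sycp1* 21 and *Tex101* 19, and the ratio of observed to expected CpG ran from 0.462 in *Dpep3* to 1.08 in *Smc1b*, against a median of 0.384 over all promoters. The 150 bases directly upstream of the start are shown for the 4 genes that could be tested in the siRNA experiment, for *Sycp1*, and for *Dpep3*, which has the fewest CpG. They are written 5′ to 3′ on the strand of the gene, with mm9 coordinates, and capitals mark each CpG.
Dazl (chr17:50432946-50433095, minus strand): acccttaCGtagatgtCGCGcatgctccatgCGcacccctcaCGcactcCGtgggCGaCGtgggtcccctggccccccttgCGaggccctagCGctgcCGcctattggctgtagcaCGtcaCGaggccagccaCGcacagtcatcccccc
Hormad1 (chr3:95363449-95363598, plus strand): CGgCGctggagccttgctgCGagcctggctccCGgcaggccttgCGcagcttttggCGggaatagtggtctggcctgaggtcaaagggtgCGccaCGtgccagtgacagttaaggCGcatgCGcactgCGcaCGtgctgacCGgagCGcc
Stag3 (chr5:138721587-138721736, plus strand): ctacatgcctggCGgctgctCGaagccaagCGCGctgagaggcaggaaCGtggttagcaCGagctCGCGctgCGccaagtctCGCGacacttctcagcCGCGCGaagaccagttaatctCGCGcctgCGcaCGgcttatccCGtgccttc
Sycp1 (chr3:102740024-102740173, minus strand): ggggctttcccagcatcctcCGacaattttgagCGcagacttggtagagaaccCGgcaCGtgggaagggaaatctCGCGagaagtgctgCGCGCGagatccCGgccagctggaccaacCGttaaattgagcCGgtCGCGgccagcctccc
Tex101 (chr7:25457070-25457219, minus strand): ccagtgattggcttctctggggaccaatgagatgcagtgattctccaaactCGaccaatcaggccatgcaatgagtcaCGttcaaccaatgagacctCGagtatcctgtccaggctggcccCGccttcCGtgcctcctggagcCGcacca
Dpep3 (chr8:108503320-108503469, minus strand): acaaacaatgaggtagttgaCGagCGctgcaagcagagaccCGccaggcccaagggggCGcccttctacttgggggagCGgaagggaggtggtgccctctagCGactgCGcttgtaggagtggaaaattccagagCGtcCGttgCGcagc
In the stretches shown, *Stag3* held 19 CpG, *Dazl*, *Hormad1* and *Sycp1* 14 each, *Dpep3* 10 and *Tex101* 6. Searched on both strands of the 300 bases, the E2F6-type motif TCCCGC was found in 6 of the 10 genes, *Ddx4*, *Sycp1*, *Sycp3*, *Hormad1*, *Stag3* and *Smc1b*, and in 20% of all promoters. The E-box CACGTG was found in 6 genes, *Ddx4*, *Sycp1*, *Sycp3*, *Stk31*, *Hormad1* and *Stag3*, and in 7.15% of all promoters. The core TGACG of the cAMP response element was found in 3 genes, *Dazl*, *Ddx4* and *Dpep3*, and in 20.8% of all promoters. Each of these motifs holds a CpG itself and matches of different motifs can overlap at their ends. Among promoters with at least 12 CpG, TCCCGC was found in 42.6%, TGACG in 34.1% and CACGTG in 11.1%. DNA methylation itself was not analysed here.

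**Figure D1:**
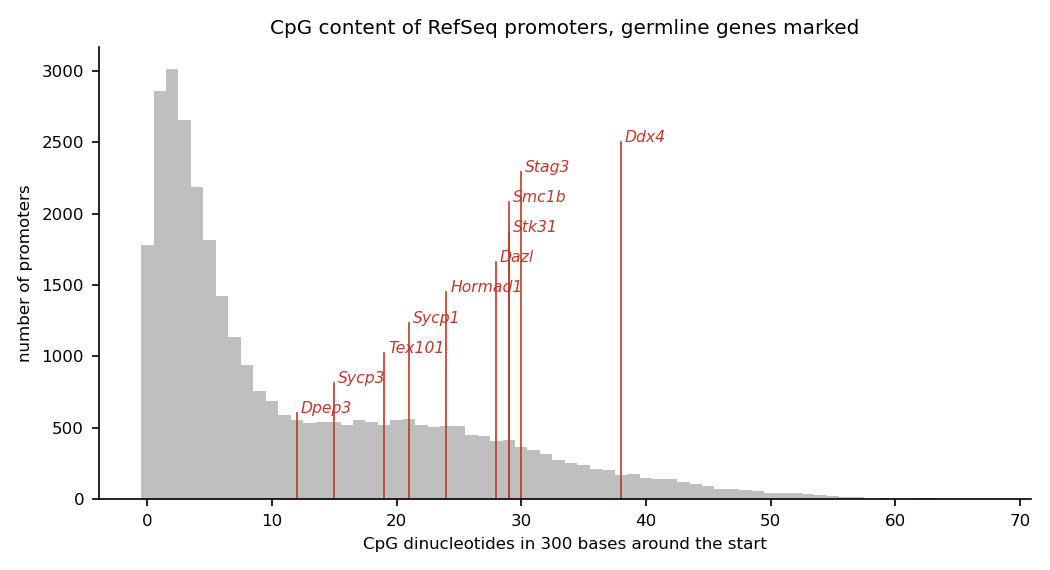
Number of RefSeq promoters (vertical axis) by the number of CpG dinucleotides in 300 bases around the start (horizontal axis), with the 10 germline genes marked by lines whose height has no meaning. All 10 lie above the median of 7 CpG, from *Dpep3* with 12 to *Ddx4* with 38.

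The values are FPKM, fragments per kilobase of transcript scaled to the mapped fragments of the library, as the authors' Cufflinks run gave them for each library. The intervals deposited with them implied 13800000 to 15700000 fragments in the siRNA libraries, 37200000 to 42700000 fragments in the total RNA libraries and 10900000 to 12700000 fragments in the inhibitor libraries. The knockdown was seen in every library. *Dnmt1* stood at 80.5 and 73.4 FPKM in siCtrl and at 78.7 and 78.3 in 4OHT + siCtrl, against 12.2 and 10.6 in siDnmt1 and 12.2 and 11.4 in 4OHT + siDnmt1. Its log2 fold change was -2.75 (SE 0.11) without 4OHT and -2.72 (SE 0.11) with it, so the depth of the knockdown differed by less than its error. *Setdb1* stood at 6.48 to 7.40 FPKM in siCtrl, 5.00 and 7.58 in 4OHT + siCtrl and 5.40 and 6.94 in 4OHT + siDnmt1, so the groups overlapped. In the total RNA experiment it stood at 5.16 to 5.95 FPKM in untreated cells, 4.16 to 6.52 at day 5 and 6.96 to 7.32 in long-term KO, which was above untreated without overlap. In the inhibitor experiment it stood at 8.76 and 10.1 FPKM in untreated cells, at 0 and 5.30 at day 6 and at 0 in both libraries with 4OHT and PD0325901, and none of the 4OHT comparisons of *Setdb1* was called. Which exons are deleted is not given in the sources used here, and the value of the whole gene does not check the labels. The file of the library labelled PD0325901 replicate 2 names 4OHT with PD0325901 in its header, and the label was followed. Genes named here after their values were seen stood in that library near PD0325901 replicate 1, with *Tex19.1* at 0 in both and *Hfm1* at 0.0601 and 0.0589 FPKM, against 0.370 and 0.563 for *Tex19.1* and 0.692 and 0.765 for *Hfm1* in 4OHT + PD0325901. The labels spell this drug both PD0325091 and PD0325901. The summed level of 12 fibroblast markers, over those with a value, was between 1439 and 5144 FPKM in all 27 libraries. *Pdgfra* had no value in the total RNA libraries, and *Col1a1* none in day 5 replicate 3 and long-term KO replicate 2. The lowest sum, of day 5 replicate 3, thus lacks both. The sum of 8 spermatid markers was at most 0.437 FPKM in the siRNA libraries, with *Tnp1* listed at 0 in every siRNA library.

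Knockdown of *Dnmt1* was followed by a higher level of 9 of the 10 germline genes, in the sense that both siDnmt1 libraries stood above both siCtrl libraries. Of 15307 genes with a value in every library of both groups that were not 0 throughout, 25.7% were higher without overlap in this comparison and 38.2% lower. Only *Sycp3*, which was listed at 0 in all libraries, was not among them. The sizes differed widely within the family, from *Stag3*, which reached about 10 FPKM, through *Dazl* and *Hormad1* at 1.64 to 3.15 FPKM, to *Stk31*, which stayed under 0.1 FPKM. Apart from *Stag3*, the 9 other genes summed to 0.276 and 0.275 FPKM in siCtrl and to 7.65 and 6.23 FPKM in siDnmt1. Fewer cells that express a gene and less RNA per cell cannot be told apart in these bulk samples.

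**Figure D2:**
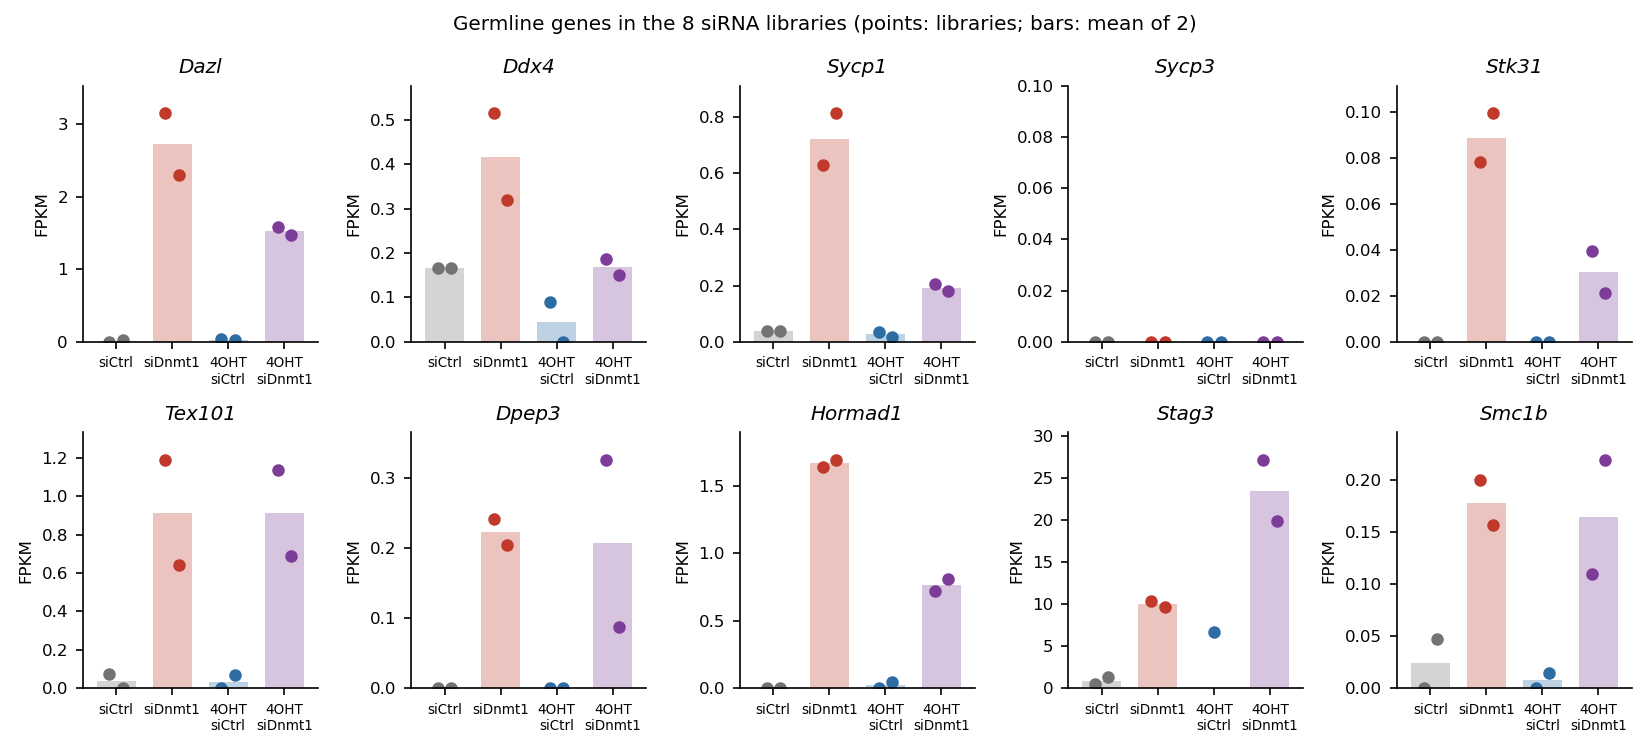
FPKM (vertical axis, linear, with its own scale in each panel) of the 10 germline genes in the 4 groups of the siRNA experiment, with a point for each library and a bar for the mean of 2. *Stag3* has 1 point in 4OHT + siCtrl. Both siDnmt1 libraries stand above both siCtrl libraries for every gene but *Sycp3*, which is listed at 0 throughout.

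Among the RNA-binding proteins, *Dazl*, needed for germ cells to develop, was listed at 0 and 0.0226 FPKM in siCtrl and at 3.15 and 2.30 FPKM in siDnmt1. The intervals implied 134 and 99.1 fragments in the siDnmt1 libraries and less than 1 in siCtrl. Its log2 fold change, on the scale of log2(FPKM + 0.1), which understates the change of low genes, was 4.66 (SE 0.37, adjusted p = 0.00221, limma with Benjamini-Hochberg adjustment over 11232 genes). *Ddx4*, the mouse homologue of Vasa, stood at 0.166 and 0.167 FPKM in siCtrl and at 0.515 and 0.319 in siDnmt1, with 20 and 11.9 implied fragments in the latter. It had thus the highest control level after *Stag3*, and the ratio of the group means was 2.5. It did not reach the minimum of 1 FPKM in 2 libraries that a gene needed to be tested.

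Of the proteins of the chromosome axis and synaptonemal complex, *Hormad1* was listed at 0 in both siCtrl libraries and at 1.64 and 1.69 FPKM in siDnmt1. The log2 fold change was 4.14 (SE 0.42, adjusted p = 0.00539). *Sycp1*, which forms the transverse filaments, stood at 0.0377 and 0.0379 FPKM in siCtrl and at 0.627 and 0.812 in siDnmt1, a ratio of means of 19. It was too low to be tested. *Sycp3* was listed at 0 in all 27 libraries, always as an assembled model. In 17 of these libraries, among them all 8 of the siRNA experiment, 26 unnamed loci were assembled inside its span, at 0.262 to 64 FPKM, between positions 87930968 and 87935354 where *Chpt1* lies on the other strand. Genes such as *Psph* and *Kdelr3* were likewise listed at 0 in some libraries and above 30 FPKM in others, so a 0 in these files can be a failed estimate, and nothing can be read from the value of *Sycp3*.

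The cohesin subunits stood far apart. *Stag3* was the only member above 0 in every library with a value. It stood at 0.528 and 1.30 FPKM in siCtrl and at 10.4 and 9.73 FPKM in siDnmt1. The log2 fold change was 3.43 (SE 0.41, adjusted p = 0.0133). *Smc1b* stood at 0 and 0.0478 FPKM in siCtrl and at 0.201 and 0.157 in siDnmt1, with 13 and 9.59 implied fragments. The cohesin subunits of somatic cells were high throughout. *Smc1a* stood at 71.5 to 82.4 FPKM in siCtrl and 60.7 to 63.0 in siDnmt1, and *Stag1* at 18.9 to 19.0 and 21.5 to 22.5. Of the 7 somatic counterparts listed for the members, all were tested and none was called by limma, where 1 had an unadjusted p under 0.05, with a median log2 fold change of -0.08 against -0.09 over all tested genes.

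The surface proteins *Tex101* and *Dpep3* reached unequal levels. *Tex101* was listed at 0.0721 and 0 FPKM in siCtrl and at 1.19 and 0.640 in siDnmt1, with 17 and 9 implied fragments. Its log2 fold change was 2.90 (SE 0.58, adjusted p = 0.0372), which missed the threshold with a pseudocount of 1 or 0.01, with quantile normalization, with a replicate block, and without siCtrl replicate 1 or 2, siDnmt1 replicate 2 or 4OHT + siDnmt1 replicate 2 (adjusted p between 0.054 and 0.227). *Dpep3* was listed at 0 in both siCtrl libraries and at 0.241 and 0.204 FPKM in siDnmt1, with 6 and 5 implied fragments. *Stk31*, the lowest, was listed at 0 in both siCtrl libraries and at 0.0780 and 0.0992 FPKM in siDnmt1, which is 4 and 5 implied fragments.

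In this comparison 4 of the 10 genes were tested and called higher, *Dazl*, *Hormad1*, *Stag3* and *Tex101*, where 2.35% of all tested genes were called higher and 2.33% lower, 4.68% in all. Calls needed 2-fold or more beside an adjusted p below 0.05. Since *Dazl*, *Hormad1* and *Tex101* reached 1 FPKM only in libraries with siDnmt1, they could enter the test only by being higher there, and their number is no measure of how many germline genes responded. With no filter, 16667 genes were fitted and 2.38% were called higher. *Sycp1* then had a log2 fold change of 2.56 (SE 0.21, adjusted p = 0.00276). *Stk31* had 0.91 (SE 0.14, adjusted p = 0.0191), which is under the 2-fold limit. *Dpep3* had 1.69 (adjusted p = 0.0563), *Smc1b* 1.19 (adjusted p = 0.0741) and *Ddx4* 0.93 (adjusted p = 0.205), none past the threshold. With only 2 libraries a group, the calls depended on each library. Without siDnmt1 replicate 1 none of the 4 was called, with adjusted p = 0.0571 for *Dazl* and 0.121 for *Stag3*, while *Hormad1* and *Tex101* no longer passed the filter. Without siDnmt1 replicate 2 only *Dazl* was called, with adjusted p = 0.113 for *Stag3*. Without siCtrl replicate 1 or 2, *Hormad1* had adjusted p = 0.0635 and 0.0685 and *Tex101* 0.15 and 0.227, and *Dazl* and *Stag3* were still called. Whichever single library was left out, the change of *Dazl* stayed between 4.44 and 4.88 and that of *Stag3* between 2.85 and 4.01.

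**Figure D3:**
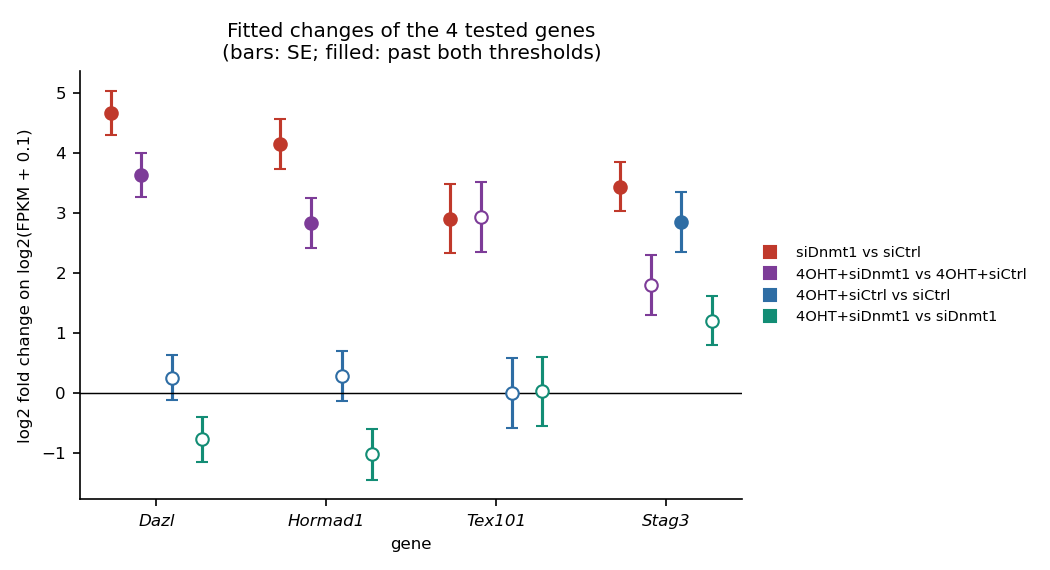
Fitted log2 fold changes on the scale of log2(FPKM + 0.1) (vertical axis) of the 4 tested genes in 4 comparisons, with bars for the SE and filled points for genes past both thresholds. The siDnmt1 effect without 4OHT runs from 2.90 for *Tex101* to 4.66 for *Dazl*, and of the 4OHT effects that of *Stag3* is marked as past the thresholds, with 1 library in 4OHT + siCtrl, its error taken from the other groups and adjusted p = 0.141 with the 2 groups fitted alone.

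With 4OHT alone, 1 of the 4 tested genes was called, *Stag3*, and of all tested genes 2.64% were called higher and 3.36% lower. It was at 6.67 FPKM in 4OHT + siCtrl replicate 2, above both siCtrl libraries. In replicate 1 its locus was joined with the neighbouring *6330418K02Rik* into a single locus of 4.25 FPKM, which was not used, so that the fit rests on 1 library of this group, which is assumed to vary like the other groups, whose spread gives the error. The log2 fold change was 2.85 (SE 0.50, adjusted p = 0.0259), and it missed the threshold without siCtrl replicate 1 (adjusted p = 0.0601), without either siDnmt1 library (0.069 and 0.0689), with a replicate block (0.0614) and with the 2 groups fitted alone (0.141). With the joined locus used for replicate 1, an alternative chosen after seeing the data, the change was 2.53 (adjusted p = 0.0205). *Dazl* stood at 0.0423 and 0.0215 FPKM, *Hormad1* at 0 and 0.0474 and *Tex101* at 0 and 0.0689 in 4OHT + siCtrl, and none was called. *Ddx4* (0.0892 and 0 FPKM) and *Sycp1* (0.0354 and 0.0180 FPKM) were below both siCtrl libraries, where 30.8% of all genes with a value were higher and 21.7% lower without overlap. *Ddx4* had at most 2.49 implied fragments against 4.95 in siCtrl, and *Sycp1* 1 to 1.99 against 0.97 to 1.99, so that the latter difference is not detectable at this depth. *Stk31* and *Dpep3* were listed at 0 in both libraries.

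In cells given 4OHT, siDnmt1 again came with higher levels of 9 of the 10 genes without overlap of the groups. For *Stag3*, 1 of the 9, this is against the single 4OHT + siCtrl library with a value. Of all genes with a value in every library of both groups, 22.3% were higher in this way, a share that leaves out genes with a missing value. *Dazl* rose from 0.0423 and 0.0215 FPKM to 1.58 and 1.48, a log2 fold change of 3.63 (SE 0.37, adjusted p = 0.00991). *Hormad1* reached 0.721 and 0.812 FPKM, a change of 2.83 (SE 0.42, adjusted p = 0.0351). These 2 were called, where 1.01% of tested genes were called higher and 1.42% in all. With quantile normalization neither passed (adjusted p = 0.062 for *Dazl* and 0.109 for *Hormad1*), and with the 2 groups fitted alone *Dazl* had adjusted p = 0.36 and *Hormad1* did not pass the filter. *Dazl* also missed the threshold without either siDnmt1 library or 4OHT + siDnmt1 replicate 1 (0.0643 to 0.0747), and *Hormad1* without either siCtrl or either 4OHT + siDnmt1 library (0.1 to 0.14). *Tex101* reached 1.13 and 0.690 FPKM (2.93, SE 0.58, adjusted p = 0.0691) and *Stag3* 27.2 and 19.9 FPKM (1.79, SE 0.50, adjusted p = 0.151, against the single library of 4OHT + siCtrl). *Sycp1* stood at 0.204 and 0.181 FPKM, *Dpep3* at 0.326 and 0.0880, *Smc1b* at 0.109 and 0.220, *Ddx4* at 0.187 and 0.152 and *Stk31* at 0.0396 and 0.0214. The intervals implied 7.29 to 11 fragments for *Sycp1*, 7 to 13 for *Smc1b* and 1.99 to 8 for *Dpep3* in 4OHT + siDnmt1. They implied 1 to 1.99 for *Stk31*, and 4.13 to 5.78 for *Ddx4*, against at most 2.49 for *Ddx4* in 4OHT + siCtrl. Against siCtrl, all 4 tested genes were called higher, with log2 fold changes of 3.88 for *Dazl*, 3.11 for *Hormad1*, 4.63 for *Stag3* and 2.91 for *Tex101*, where 8.61% of tested genes were called higher and 6.74% lower, 15.3% in all. *Tex101* missed the threshold without siCtrl replicate 1 or 2 (adjusted p = 0.0549 and 0.0937), and 2 genes were called without siDnmt1 replicate 1. In this comparison 8 of the 10 genes were higher without overlap, where 40.1% of all genes were.

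Between 4OHT + siDnmt1 and siDnmt1, the direction differed among the genes. Both 4OHT + siDnmt1 libraries were below both siDnmt1 libraries for 5 genes, *Dazl*, *Ddx4*, *Sycp1*, *Stk31* and *Hormad1*, where 19.6% of all genes with a value were lower in this way. They were above for *Stag3*, where 42.5% of all genes were higher. The groups overlapped for *Tex101*, *Dpep3*, *Smc1b* and *Sycp3*. For *Stk31* the intervals implied 4 to 5 fragments in siDnmt1 and 1 to 1.99 in 4OHT + siDnmt1. For *Ddx4* they implied 11.9 to 20 and 4.13 to 5.78. The group mean of *Dazl* was 2.73 FPKM in siDnmt1 and 1.53 in 4OHT + siDnmt1, that of *Hormad1* 1.67 and 0.766, and that of *Sycp1* 0.719 and 0.192. *Stag3*, in contrast, had a mean of 10.1 FPKM in siDnmt1 and 23.5 in 4OHT + siDnmt1. None of the 4 tested genes passed the threshold in this comparison, and 2 had an unadjusted p under 0.05 in limma, where 3.37% of genes were called higher and 2.21% lower, 5.58% in all. The log2 fold changes were -0.78 for *Dazl* (SE 0.37, adjusted p = 0.196), -1.03 for *Hormad1* (SE 0.42, adjusted p = 0.145), 1.20 for *Stag3* (SE 0.41, adjusted p = 0.108) and 0.02 for *Tex101* (SE 0.58, adjusted p = 0.988). With the 2 groups fitted alone, *Hormad1* (adjusted p = 0.0499) and *Stag3* (adjusted p = 0.0233) passed it. With no filter, where 1.73% of genes were called lower, *Sycp1* was called with a change of -1.48 (SE 0.21, adjusted p = 0.0184).

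The interaction, which asks whether the siDnmt1 effect differs between cells with and without 4OHT, was not past the threshold for any tested member. It was -1.03 for *Dazl* (SE 0.53, adjusted p = 0.576), -1.31 for *Hormad1* (SE 0.60, adjusted p = 0.535), -1.65 for *Stag3* (SE 0.64, adjusted p = 0.493) and 0.03 for *Tex101* (SE 0.82, adjusted p = 0.995), where 0.214% of all tested genes were called in either direction. In limma, 1 of the 4, *Stag3*, had an unadjusted p under 0.05. A difference between the effects is thus not shown at this number of libraries.

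The other germline genes, listed by role, were mostly under 1 FPKM. Of 18 listed genes of germ cell RNA and the piRNA pathway, 4 were tested and 3 called higher with siDnmt1, where 2.35% of all tested genes were called higher and 2.33% lower. *Tex19.1*, a placenta and germ line protein that restrains transposons, rose from 0.0398 and 0.0799 FPKM to 25.0 and 23.6, *Gtsf1*, a partner of the piRNA proteins, from 0 in both libraries to 10.0 and 8.87, and *Piwil2*, a piRNA-binding Argonaute protein, from 0.0388 and 0.0130 to 6.06 and 5.20. *Tex19.1* has a close paralogue, and 4OHT + siDnmt1 replicate 2 gave it no value. Of 10 listed axis and synaptonemal complex genes 8 had a row, 3 were tested and 2 called higher, *Rec8*, a cohesin subunit of meiosis, at 1.56 and 1.45 FPKM and *Tex12*, of the central element, at 1.74 and 2.36. Of 14 recombination genes 13 had a row, 6 were tested and 2 called higher, *Tex11* (log2 fold change 3.68) and *Tex15* (2.80), whereas *Spo11*, which makes the breaks, and *Mei1* were listed at 0. *Mnd1* was tested and not called, though it stood at 5.93 and 5.70 FPKM in siCtrl and at 26.8 and 23.8 in siDnmt1. It was listed at 0 in 4OHT + siCtrl replicate 2, against 6.32 FPKM in replicate 1. The 0 enters the spread shared by all groups, and its part in the missing call was not tested. Of 20 other germline genes whose promoters are known to be methylated, 6 were tested and 5 called higher, among them *Taf7l*, a germ cell variant of a TFIID subunit, from 0 in both libraries to 5.48 and 5.57 FPKM and *Tuba3b*, a testis tubulin, from 0 to 15.5 and 18.1. *Tuba3a* and *Tuba3b* are near-identical, and their split is uncertain. No gene of these 4 lists was called lower with siDnmt1. Most of the genes called, like the members, passed the filter only through libraries with siDnmt1, so that they had to differ and the counts support nothing about the lists.

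The same lists held genes in both directions with 4OHT. With 4OHT alone, *Tex19.1*, *Tdrd9*, a helicase of the piRNA pathway, *Gtsf1*, *Tex15* and *Prdm9*, a histone methyltransferase that places meiotic breaks, were called higher, with log2 fold changes of 3.18, 3.03, 1.39, 1.33 and 2.17. Of all tested genes 2.64% were called higher and 3.36% lower in this comparison. None of the 6 tested among the other methylated germline genes was called, nor had any an unadjusted p under 0.05 (0 of 6 in limma). In 4OHT + siDnmt1 against siDnmt1, *Taf7l*, *Slc25a31* and *Tex13* were called lower, with changes of -2.83, -1.90 and -2.16 and adjusted p = 0.0132, 0.0425 and 0.0490, and *Prdm9* and *Tdrd9* were called higher, with 3.25 and 2.83. Here 3.37% of all tested genes were called higher and 2.21% lower. In limma no interaction passed the threshold in these 4 lists, where 0 of 3 axis, 1 of 6 recombination, 2 of 4 RNA and 3 of 6 other genes had an unadjusted p under 0.05, with adjusted p = 0.156 for *Tex19.1* and 0.163 for *Taf7l*.

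Of 17 listed repressors of germline genes, all tested with siDnmt1, *Dnmt1* itself was the only one called, where 4.68% of all tested genes were called. In limma 8 of the 17 had an unadjusted p under 0.05, as had 2912 of all 11232 tested genes. *Uhrf1*, which guides Dnmt1 to new DNA, had a log2 fold change of 0.13 (SE 0.11), *Dnmt3a* -0.62 (SE 0.16, adjusted p = 0.0768), *E2f6* 0.46 (SE 0.17, adjusted p = 0.151), *Mga* 0.05 (SE 0.18), *Pcgf6* 0.21 (SE 0.17), *L3mbtl2* 0.05 (SE 0.13), *Max* 0.30 (SE 0.12, adjusted p = 0.170) and *Setdb1* -0.25 (SE 0.24). The polycomb proteins *Rnf2* (-0.23) and *Ring1* (0.03), the H3K9 methyltransferases *Ehmt1* (-0.35) and *Ehmt2* (-0.32), and *Cbx3* (-0.28), *Wdr5* (0.08), *Dnmt3b* (-0.24) and *Hells* (0.00, with a value in 1 siDnmt1 library) were not called either. With 4OHT alone none of the 17 was called by limma, and 8 had an unadjusted p under 0.05.

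Markers of other cell types were counted in the same libraries. The summed level of 12 fibroblast markers was 4104 and 4184 FPKM in siCtrl, 3247 and 3360 in siDnmt1, 2097 and 2592 in 4OHT + siCtrl and 1904 and 2154 in 4OHT + siDnmt1. In siDnmt1, 2 of the 12 were called lower and 1 higher, where 2.33% of all tested genes were called lower and 2.35% higher. With 4OHT alone 7 were called lower, where 3.36% of all tested genes were. In 4OHT + siDnmt1 against siDnmt1 7 were also called lower, where 2.21% of all tested genes were. The 8 spermatid markers summed to at most 0.134 FPKM in siDnmt1, with *Prm1*, *Prm2*, *Tnp1*, *Tnp2*, *Acrv1* and *Akap4* at 0 in both libraries, and the 8 oocyte markers to 0.197 and 0.205 FPKM, with *Zp1*, *Zp2*, *Oosp1*, *Figla* and *Nlrp5* at 0. The 8 markers of primordial germ cells and pluripotent cells summed to 1.22 and 1.24 FPKM in siCtrl and 1.32 and 1.61 in siDnmt1. The 8 Sertoli and Leydig cell markers summed to 2.06 and 2.13 FPKM in siCtrl and 8 and 8.28 in siDnmt1, mainly through *Sox9*, which rose from 1.72 and 1.83 to 6.18 and 6.81 FPKM, while *Star*, *Cyp11a1* and *Hsd3b1* were at 0. The part of these levels in the values of the germline genes was not tested.

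In the other experiments the highest value of any member but *Stag3* was 0.466 FPKM, of *Ddx4* with TSA, and values listed at 0 there may also be failed estimates. In untreated cells of the total RNA experiment, which was sequenced most deeply, *Dazl*, *Stk31*, *Tex101* and *Hormad1* were listed at 0 in all 3 libraries, *Sycp1* was at 0.0418, 0.0890 and 0.0742 FPKM, and *Ddx4* at most at 0.0466. These libraries had been depleted of ribosomal RNA, unlike those of the other experiments, so levels are not compared across them.

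**Figure D4:**
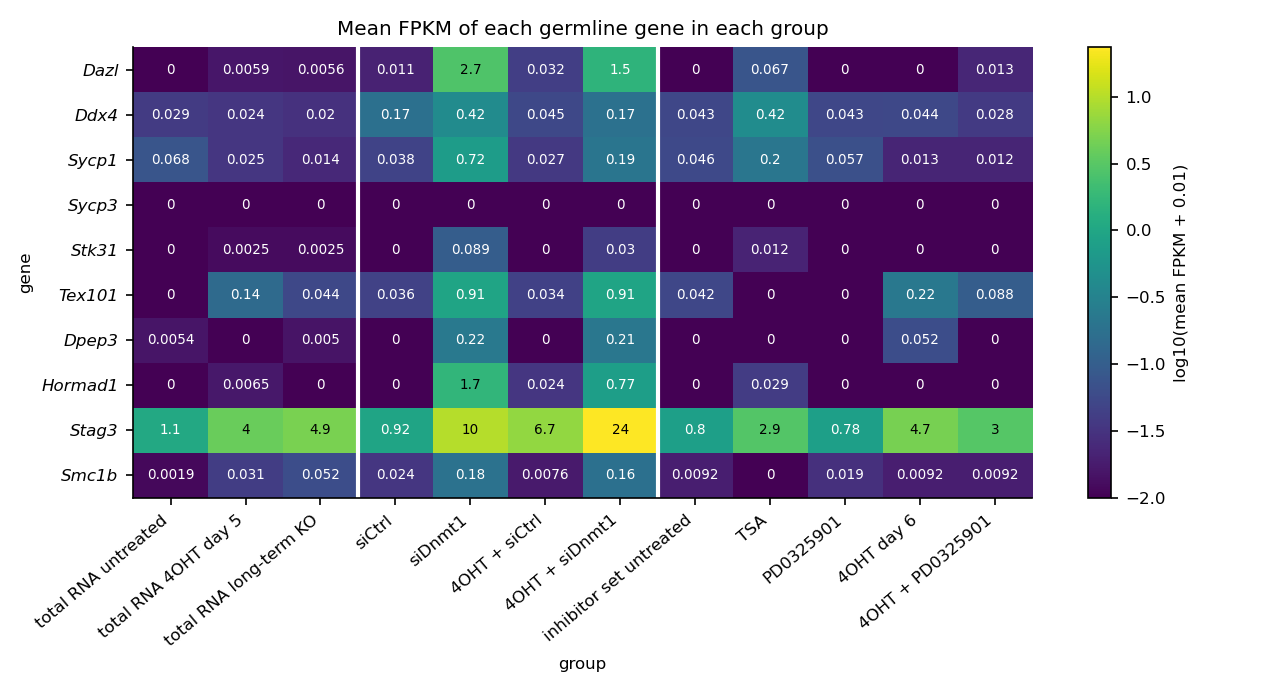
Mean FPKM of each germline gene (rows) in each of the 12 groups (columns), with white lines between the experiments. Colour gives log10(mean FPKM + 0.01) and the printed value the mean over the libraries with a value. The siDnmt1 and 4OHT + siDnmt1 columns are high for most genes, and the *Stag3* row is high in all groups with 4OHT.

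After 4OHT in the total RNA experiment, *Stag3* was the only member tested. It stood at 0.656, 0.961 and 1.58 FPKM in untreated cells, at 3.90, 3.95 and 4.22 at day 5 and at 4.99, 4.58 and 5.27 in long-term KO cells. All 6 libraries with 4OHT were above all 3 untreated ones. The log2 fold change was 1.90 at day 5 (SE 0.25, adjusted p = 0.00089, with 2.06% of 10107 genes called higher and 3.28% in all) and 2.19 in long-term KO (SE 0.25, adjusted p = 0.00012, with 7.55% called higher and 6.19% lower). Long-term KO and day 5 differed by 0.29 (SE 0.25, adjusted p = 0.340), where 6.44% of genes were called higher and 5.92% lower.

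Lower members also differed between these groups, at levels near the limit of detection. *Tex101* was listed at 0 in all untreated libraries, at 0.158, 0.135 and 0.112 FPKM at day 5 and at 0.0257, 0.0540 and 0.0518 in long-term KO. With no filter its log2 fold change was 1.23 at day 5 (SE 0.10, adjusted p = 0.000124), where 2.46% of 15956 genes were called higher. *Smc1b* was at 0, 0.00557 and 0 FPKM in untreated cells, at 0.0482, 0.0248 and 0.0192 at day 5 and at 0.0352, 0.0740 and 0.0473 in long-term KO, changes of 0.35 (adjusted p = 0.0573) and 0.57 (adjusted p = 0.00364), both under 2-fold on this scale. *Sycp1* went the other way, to 0.0214, 0.0220 and 0.0303 FPKM at day 5 and to 0.00694, 0.0219 and 0.0140 in long-term KO, with changes of -0.42 (adjusted p = 0.0255) and -0.55 (adjusted p = 0.00364). Of the 10 members, 3 were higher and 1 lower without overlap in both comparisons with untreated cells, where 23.1% and 17.5% of all genes were higher and lower at day 5, and 34.2% and 24.3% in long-term KO. *Dazl*, *Hormad1*, *Stk31* and *Dpep3* reached at most 0.0195 FPKM in any total RNA library.

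In the inhibitor experiment, *Stag3* was again the only member tested. It stood at 1.15 and 0.445 FPKM in untreated cells and at 2.77 and 3.07 with TSA, a log2 fold change of 1.87 (SE 0.39, adjusted p = 0.0048), where 19% of 11909 genes were called higher. With 4OHT at day 6 it stood at 4.07 and 5.35 FPKM (2.53, SE 0.39, adjusted p = 0.00498, with 4.96% called higher). PD0325901 left it at 0.649 and 0.911 FPKM (0.07, SE 0.39, adjusted p = 0.936), or -0.14 without replicate 2, whose header gives the other name. With both 4OHT and PD0325901 it stood at 2.75 and 3.32 FPKM, which was 1.84 above PD0325901 alone (SE 0.39, adjusted p = 0.0313, with 3.17% called higher) and differed from 4OHT alone by -0.61 (SE 0.39, adjusted p = 0.409). The *Stag3* call against PD0325901 missed the threshold when any 1 of the 6 libraries of the TSA, PD0325901 and 4OHT + PD0325901 groups was left out, with adjusted p between 0.055 and 0.121, and its change without PD0325901 replicate 2 was 2.06.

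**Figure D5:**
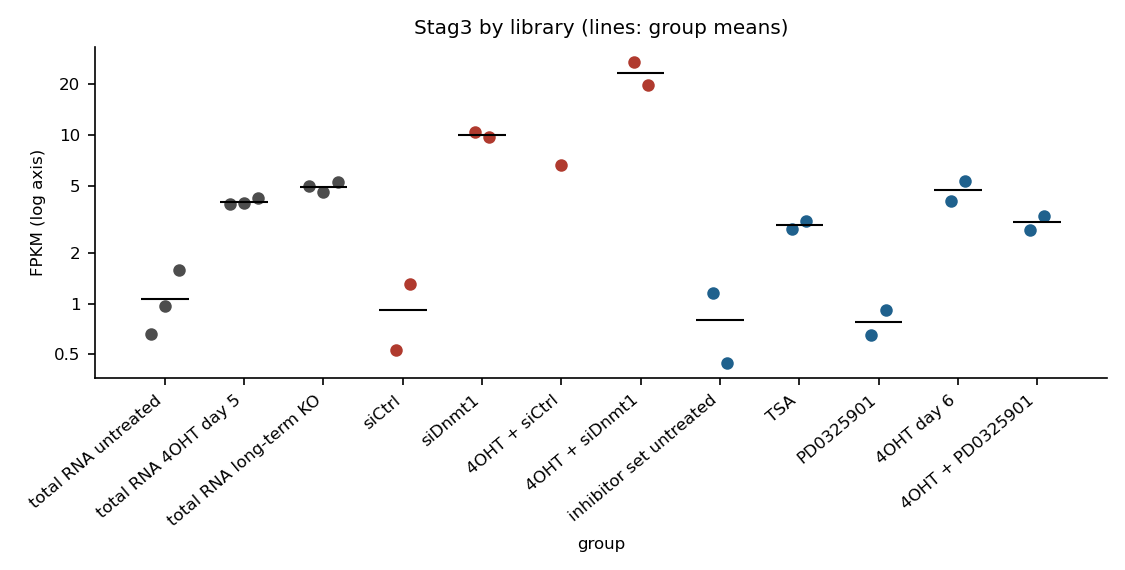
FPKM of *Stag3* (vertical axis, logarithmic) in 26 libraries by group, with points for libraries and lines for group means. Libraries with 4OHT stand above the untreated or siCtrl libraries of their own experiment in all 3 experiments, and 4OHT + siDnmt1 holds the highest values, 27.2 and 19.9 FPKM.

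The level of *Stag3* rests on gene models assembled in each library. Its FPKM per implied fragment ran over a 25.6-fold range between the 25 libraries with at least 10 implied fragments, from experiments that differ in depth. The range was 1.10-fold for *Dazl*, over 4 such libraries of the siRNA experiment. For the other members with such libraries it was between 1.01-fold for *Tex101* and 2.84-fold for *Sycp1*. The sets of libraries are thus unlike. A wide spread for *Stag3* was also seen within a group of the total RNA experiment. The 3 day 5 libraries had 22.8 to 340 implied fragments of *Stag3*, at 3.90, 3.95 and 4.22 FPKM. The depth of the total RNA libraries ran only from 37200000 to 42700000 fragments. The part of the *Stag3* range in the values of *Stag3* was not tested.

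With TSA, 3 lower members stood above untreated cells as well. *Ddx4* stood at 0.0551 and 0.0304 FPKM in untreated cells and 0.383 and 0.466 with TSA, *Sycp1* at 0.0438 and 0.0482 and at 0.246 and 0.157, and *Dazl* at 0 in both and at 0.0535 and 0.0803. Together with *Stag3* these were the 4 members higher without overlap, where 48.1% of all genes with a value were higher and 29.3% lower. The implied fragments with TSA were 12 to 14.8 for *Ddx4*, 7 to 11 for *Sycp1* and 0.998 to 1.72 for *Dazl*. With no filter, where 20.7% of genes were called higher, *Ddx4* had a log2 fold change of 1.88 (SE 0.25, adjusted p = 0.000927) and *Sycp1* of 1.03 (SE 0.21, adjusted p = 0.0057). Other markers moved with TSA too. The Sertoli and Leydig cell markers summed to 1.8 and 1.83 FPKM in untreated cells and to 12.3 and 15.2 with TSA, with *Dhh* and *Gata4* called higher, the oocyte markers to 0.0637 and 0.244 and to 0.839 and 1.42, and the primordial germ cell markers to 0.992 and 1.31 and to 1.88 and 2.39. Of 11 tested fibroblast markers 4 were called lower and 2 higher, and of the 7 somatic counterparts 3 were called lower, where 19% of all tested genes were called higher and 12.8% lower. Their part in the values of the members was not tested. *Dpep3* and *Smc1b* were listed at 0 in both TSA libraries, *Tex101* as well, and *Hormad1* was at 0.0588 and 0. TSA and siDnmt1 were measured in different experiments, and their effects were not tested against each other. With 4OHT at day 6, *Tex101* was at 0.335 and 0.0963 FPKM against 0.0836 and 0 in untreated cells, and *Dpep3* at 0.0481 and 0.0553 against 0 in both. With *Stag3* these were 3 members higher without overlap, where 31.8% of all genes were, and *Sycp1* (0 and 0.0252 FPKM) was lower, where 29.6% were. With PD0325901 no member was higher or lower without overlap, where 23.5% and 34.6% of all genes were. With both drugs, 2 members were higher and 1 lower than with PD0325901 alone, where 30.3% and 15.5% of all genes were, and 3 were lower than with 4OHT alone, where 18.4% were. Apart from *Stag3*, the members in the counts with 4OHT at day 6 or both drugs had at most 3 implied fragments in a library. Their differences are thus not detectable at this depth.

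The genes most like the mean profile of the 4 tested members over the 8 siRNA libraries were *Pnma5* (Pearson r = 0.993), *A430078G23Rik* (0.991), *Ptgis* (0.990), *Piwil2* (0.990) and *March9* (0.990, over 7 libraries). These values are a description, chosen from the same libraries. *Pnma5* was listed at 0 in siCtrl and at 1.74 and 1.19 FPKM in siDnmt1, and *A430078G23Rik* stood at 0.861 and 1.15 in siCtrl and 198 and 224 in siDnmt1. *Ptgis*, prostacyclin synthase, stood at 0 and 0.0396 in siCtrl and at 2.03 FPKM in both siDnmt1 libraries.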

How the data were processed

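RNA-seq libraries of *Setdb1* cKO iMEFs were analysed from FPKM values. The authors mapped reads to mm9 with TopHat2 (version 2.0.12) and estimated the deposited FPKM per locus with Cufflinks. Total RNA libraries had been depleted of ribosomal RNA. Tables of the authors' own comparisons hold log2 fold changes and p-values and were not used. Groups followed the labels.

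Loci that share a symbol were summed, and a locus joining several genes gave no value for them. Total RNA files hold no gene names, so a gene took the locus covering at least 95% of it. In each experiment log2(FPKM + 0.1) was fitted with limma (version 3.58.1, R 4.3.3, trended variance, two-sided) over all groups together, with Benjamini-Hochberg adjustment over all genes that reached 1 FPKM in 2 libraries (3 for total RNA) and had a value in every group. Calls needed adjusted p under 0.05 and a 2-fold change, in 13 comparisons and 1 interaction. Fits on simulated data for siDnmt1 against siCtrl recovered 183 of 200 changed genes, with 3 others called, among 10161 genes. The changed genes all had a siCtrl level above that of every member, and no value was missing. Recovery of genes as low as the members was thus not tested. Implied fragments were computed from the deposited FPKM intervals and cover counting error, with isoform uncertainty where several isoforms were assembled. Promoters came from RefSeq (GRCm38.p6) and were matched to mm9 exactly.

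All members were named in every comparison, list genes where called with siDnmt1, all listed repressors, and the 5 genes most like the members' profile. Further list genes called with 4OHT, the genes listed at 0 in some libraries, and the markers were named after their values were seen. The members and lists were chosen with earlier results of these data known. Alternatives were other pseudocounts (0.01, 1), filters (none, 5 FPKM), scalings, a replicate block, only the groups compared, other locus rules and each library left out. The use of joined loci was added after seeing the data.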

Additional observations from a re-analysis of the deposited data

How the results depend on the processing

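With groups of 2 or 3 libraries the number of members called moved with the settings, and the cause was not tested. For siDnmt1 against siCtrl it was 4, with 3 at a pseudocount of 1 or 0.01, under quantile normalization, the replicate block or only the groups compared, 5 with no filter, 1 under a filter of 5 FPKM and 0 to 4 without single libraries. For 4OHT + siCtrl against siCtrl it was 1, with 0 under the replicate block and with only the groups compared, and 0 to 1 without single libraries. For 4OHT + siDnmt1 against 4OHT + siCtrl it was 2, with 1 at a pseudocount of 1 or 0.01 and under the replicate block, 0 under a filter of 5 FPKM, quantile normalization or only the groups compared, and 0 to 3 without single libraries. For 4OHT + siDnmt1 against siCtrl it was 4, with 2 at a pseudocount of 1 or with only the groups compared, 7 with no filter, 1 under a filter of 5 FPKM, and 2 to 4 without single libraries. For 4OHT + siDnmt1 against siDnmt1 it was 0, with 1 at a pseudocount of 1 or with no filter and 2 with only the groups compared. For the comparisons where *Stag3* alone was called, a filter of 5 FPKM left 0 at day 5, in long-term KO, at day 6, with TSA and for 4OHT + PD0325901 against PD0325901. With no filter these counts were 2 at day 5, 3 with TSA and 0 for 4OHT + PD0325901 against PD0325901, where only the groups compared also gave 0 and single libraries left out 0 to 1. Changes of sign were found only in small differences that were not called. The log2 fold change of *Tex101* for 4OHT + siDnmt1 against siDnmt1 was -0.13 with median-ratio scaling and -0.37 with quantile normalization, and -0.38 to 0.34 without single libraries. Its interaction was -0.10 and -0.11 in these scalings and -0.37 to 0.42 without single libraries. Its 4OHT effect in siCtrl was -0.40 to 0.38 without single libraries, that of *Hormad1* 0.00 to 0.56, and the PD0325901 effect on *Stag3* -0.53 to 0.67. With 2 libraries a group in the siRNA and inhibitor experiments, the numbers were not taken to pair the samples. Correlations of same-numbered deviations were -0.0681 to 0.0319 in the siRNA and -0.0487 to 0.122 in the total RNA experiment. In the inhibitor experiment the lowest was -0.0237, but those among PD0325901, 4OHT and 4OHT + PD0325901 were 0.227, 0.206 and 0.253, a hint from the data that these libraries share something by number. With the replicate block *Stag3* was called as before against PD0325901 (adjusted p = 0.0411).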
